A study of Mus musculus with 6 samples.

Results

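The MYC, MAX and MXD network is a set of transcription factors that share partners and DNA sites. Its 10 genes were taken by Ensembl ID from the 56884 genes of the count table: Myc, Mycn, Mycl, Max, Mxd1, Mxd3, Mxd4, Mxi1, Mnt and Mlx. All 10 were found, and 9 passed the filter on low counts and entered the test with 15462 genes in all. Mycn did not pass. RNA came from 3 unselected spleens labelled passage 1 (P1), from an adoptive transfer of Eµ-SOX11CCND1 cells that models mantle cell lymphoma, and from 3 samples of B cells selected from spleens of wild-type (WT) mice, whose columns are marked BL6. The Eµ immunoglobulin enhancer directs a transgene to the B lineage. The labels give no age or sex for either group, and do not say whether the P1 mice received cells of 1 donor. P1 libraries keep the mouse numbers 3, 4 and 5, and the WT columns, which name no mouse, are called WT A, B and C. The columns of WT A and WT B share the tag D4 and that of WT C carries F3, and the meaning of these tags is not known here. Each library carries its own mouse number in the titles, and p-values measure the spread between these 6 libraries.

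MYC, MYCN and MYCL bind DNA as pairs with MAX, through a helix-loop-helix and leucine zipper, at the E-box CACGTG, and raise the transcription of genes for growth, metabolism and ribosome production. MXD1, MXI1, MXD3, MXD4 and MNT also pair with MAX and occupy the same sites, but they bring the SIN3 and histone deacetylase repressor and so oppose MYC. MLX is a MAX-like partner that pairs with some MXD proteins, with MNT and with the glucose-sensing factor MondoA. In B cells MYC is induced on activation, and its deregulation is a hallmark of aggressive lymphomas.

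The E-box that these proteins bind is shown first, because it lies in the start-site windows of members of the network itself. A RefSeq window of 300 bases (build GRCm38.p6, 250 before and 50 after an annotated start) was at hand for Mycn, Mycl, Max, Mxd1, Mxd3, Mxd4, Mxi1, Mnt and Mlx. The palindrome CACGTG, which reads the same on both strands, was in the windows of 4 of these 9 genes, Max, Mlx, Mnt and Mxd4, against 8.1% of 27025 genes with such a window. The 66 bases around each E-box are printed 5′ to 3′ on the gene's own strand, with the E-box in capitals.
Max, chr12:76962216-76962281, minus strand: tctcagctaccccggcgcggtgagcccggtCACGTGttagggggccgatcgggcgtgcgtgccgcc
Mlx, chr11:101087220-101087285, plus strand: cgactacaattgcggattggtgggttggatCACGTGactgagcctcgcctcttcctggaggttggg
Mnt, chr11:74830771-74830836, plus strand: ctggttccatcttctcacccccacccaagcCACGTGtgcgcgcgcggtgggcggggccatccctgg
Mxd4, chr5:34187894-34187959, minus strand: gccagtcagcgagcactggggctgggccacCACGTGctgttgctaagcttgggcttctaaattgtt

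The first base of the E-box lay at -3 from the annotated start of Max and at -40 from that of Mlx, and farther upstream in Mnt and Mxd4, at -123 and -219. No E-box of these letters was in the windows of Mxd1, Mxd3 or Mxi1, the members called higher in P1 spleen, nor in those of Mycl or Mycn. Most genes lack it too, since 8.1% of genes with a window hold it, and a link to the calls was not tested. The Mxd1 window held 4 copies of the CCAAT box (CCAAT or, on the other strand, ATTGG), which was also in the windows of Mxd4 and Mlx and in 41.1% of genes with a window. The Mxd3 window held 1 match to GCGGGAA, the core of sites bound by E2F factors, which was searched on both strands and found in 5.3% of genes. These 2 further motifs were picked after the windows had been read. The windows of Mxi1 (3 annotated starts) held none of the 3 motifs. The windows of Mxd1 and Mxd3 are shown whole because these genes rose most, with the matches in capitals.
Mxd1, chr6:86669110-86669409, minus strand: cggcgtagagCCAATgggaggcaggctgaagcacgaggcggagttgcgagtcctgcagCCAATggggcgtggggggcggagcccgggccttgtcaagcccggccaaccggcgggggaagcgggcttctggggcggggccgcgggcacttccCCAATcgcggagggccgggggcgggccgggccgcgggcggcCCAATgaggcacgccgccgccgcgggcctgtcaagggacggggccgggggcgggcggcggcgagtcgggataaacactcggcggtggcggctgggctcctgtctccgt
Mxd3, chr13:55329682-55329981, minus strand: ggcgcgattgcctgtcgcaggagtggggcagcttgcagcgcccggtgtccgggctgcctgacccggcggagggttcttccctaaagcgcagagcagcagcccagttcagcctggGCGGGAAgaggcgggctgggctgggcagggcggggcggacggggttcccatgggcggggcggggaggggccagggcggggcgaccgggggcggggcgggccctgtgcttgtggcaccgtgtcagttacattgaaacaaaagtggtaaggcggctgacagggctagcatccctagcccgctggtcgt

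The main difference was in the antagonists of MYC. Mxd1, Mxd3 and Mxi1 were higher in P1 spleen, by 13.3-fold, 10.4-fold and 8.53-fold over WT B cells, while Mxd4 was lower, at 0.512 of its WT level. Myc, Mycl, Max, Mnt and Mlx did not pass the test. Of the 9 tested members 3 were called higher (33.3%) and 1 lower (11.1%), against 16.9% higher and 11.0% lower among all tested genes (edgeR quasi-likelihood test, Benjamini-Hochberg adjusted p under 0.05). The share of lower calls was thus near the background. Over the 9 members log2 fold changes had a median of -0.20, beside 0.02 for all genes. All 6 libraries separated by group in 4 of the 9 members (44.4%), near the 47.8% of all tested genes in which they did so.

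**Figure D1:**
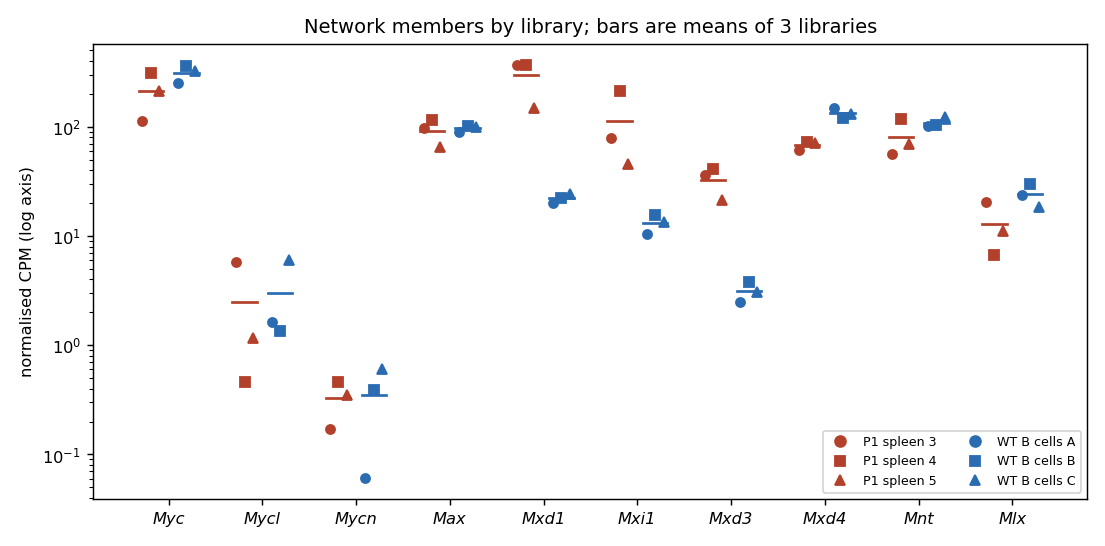
Normalised counts (CPM, log axis) of the 10 members in each library, P1 spleen in red left of WT B cells in blue, with bars for the mean of 3 libraries. Mxd1, Mxi1 and Mxd3 sit far higher in all P1 libraries, Mxd4 sits lower, and the points of the other 6 genes overlap between groups.

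Libraries held 7510327 to 10363396 counts in P1 spleen and 12196413 to 14266132 in WT B cells, and P1 replicate 4 had 17.4% of its counts on the mitochondrial genome, against 0.085% to 3.40% in the other P1 libraries and 0.569% to 1.14% in the WT libraries. The driver Sox11 had 956, 4066 and 5584 counts in P1 replicates 3, 4 and 5 and 0, 1 and 0 in the WT libraries, which goes with the labels. These raw counts are not scaled to library size and so do not rank the P1 libraries. Pan-B cell markers (14 of 15 lower, Cd74 not called) summed to 1598 to 8351 CPM in P1 spleen and 19210 to 21540 in WT B cells. Cd74 alone was a large part of these sums, at 706 to 5867 CPM in P1 spleen and 8272 to 10550 in WT B cells. Erythroid and neutrophil markers (12 of 12 higher in each list) summed to 6621 to 203400 and 1032 to 7590 CPM in P1 spleen, against 58.3 to 95.1 and 4.11 to 10.9 in WT B cells. T cell markers (9 of 10 higher, Cd2 lower) summed to 281.8 to 717 CPM in P1 spleen and 215 to 224 in WT B cells, and macrophage markers (0 of 10 called) to 615 to 1768 CPM in P1 spleen and 286 to 819 in WT B cells. No marker was at 0 in every library of a group. Selection of B cells, genotype and tumour differ together between the groups and cannot be told apart, nor can a change in the number of cells of a type be told from a change in RNA per cell.

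Myc (chromosome 15, 61857240 to 61862223, plus strand, GRCm39) encodes the family member that growth signals induce in lymphocytes. It had 113.5, 312.9 and 212.3 CPM (counts scaled to a common, TMM-normalised library size) in P1 replicates 3, 4 and 5, against 252.5, 358.7 and 323.7 CPM in WT A, B and C. P1 replicates 3 and 5 were below all WT libraries and replicate 4 lay among them. The means were 213 ± 99.7 CPM in P1 spleen and 312 ± 54.1 CPM in WT B cells (SD, n = 3 each). The log2 fold change of -0.55 ± 0.39 (standard error) did not pass (edgeR adjusted p = 0.325). Without P1 replicate 4 it was -0.92 (adjusted p = 0.0774), and without replicate 3 it was -0.25 (adjusted p = 0.542).

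Next to Myc lies Pvt1, a long noncoding RNA gene often rearranged together with MYC in lymphomas, which had 31.0, 46.7 and 43.4 CPM in P1 replicates 3, 4 and 5 and 15.8, 14.4 and 17.9 CPM in WT A, B and C. Pvt1 rose by 1.33 ± 0.27 (log2, edgeR adjusted p = 0.00742), which did not pass when WT A or WT B was left out (0.0526 and 0.0585) or with plain library totals (0.119). The neighbour was called and Myc was not. The difference between these 2 responses was not tested.

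Mycn (chromosome 12, 12986094 to 12991915, minus strand) and Mycl (chromosome 4, 122889445 to 122896278, plus strand) encode the relatives known from neural and other progenitors and from dendritic cells. Mycn had 2, 2 and 3 counts in P1 replicates 3, 4 and 5 against 1, 6 and 8 in WT A, B and C. Its ratio of summed counts per library size was 0.86, with an exact 95% counting interval of 0.297 to 2.24, so a difference was not detectable at this depth. Mycl had 5.76, 0.463 and 1.16 CPM in P1 replicates 3, 4 and 5, against 1.64, 1.35 and 6.05 CPM in WT A, B and C. P1 replicate 3 and WT C stood above the other libraries of their groups, and the log2 fold change of -0.20 ± 0.90 (edgeR adjusted p = 0.891) changed sign without WT C, without P1 replicate 4 or without P1 replicate 5. Per length, Myc made up 96.6% to 99.8% of the transcripts of the MYC genes in P1 spleen and 98.6% to 99.7% in WT B cells.

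Max (chromosome 12, 76984043 to 77008975, minus strand), the shared partner, had the smallest difference between groups. It had 96.6, 115 and 65.3 CPM in P1 replicates 3, 4 and 5 and 89.7, 100.6 and 100 CPM in WT A, B and C. P1 replicate 3 lay within the WT range, replicate 4 above it and replicate 5 below it, and the log2 fold change was -0.07 ± 0.27 (edgeR adjusted p = 0.872). Max therefore served as the yardstick for ratios within a library, which do not depend on how libraries are scaled. Because Max was picked for its small difference in these data, group differences in the ratios largely repeat the fold changes. They are not separate support.

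Mxd1 (chromosome 6, 86624024 to 86646143, minus strand), an antagonist that many blood cells switch on as they mature, rose most. It had 369.6, 365.8 and 149 CPM in P1 replicates 3, 4 and 5, against 20.2, 22.0 and 24.4 CPM in WT A, B and C. All P1 libraries were far above all WT libraries, with replicate 5 the lowest of the P1 spleens. The means were 295 ± 126 CPM in P1 spleen and 22.2 ± 2.12 CPM in WT B cells (SD, n = 3 each), and the log2 fold change was 3.73 ± 0.41 (edgeR adjusted p = 0.00078). Mature neutrophils are known for high Mxd1, and P1 replicates 3, 4 and 5 held 7590, 1032 and 2554 CPM of the 12 neutrophil markers. Mxd1 was nearly the same in replicates 3 and 4, while their neutrophil marker sums differed widely. The part of neutrophils in the rise was not tested.

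Mxi1 (chromosome 19, 53298949 to 53364241, plus strand), whose human name is also MXD2, rose with a wide spread. It had 79.4, 213 and 45.6 CPM in P1 replicates 3, 4 and 5 and 10.48, 15.5 and 13.5 CPM in WT A, B and C. Replicate 4 stood well above the other P1 spleens, and all P1 libraries were above all WT libraries. The means were 113 ± 88.6 CPM in P1 spleen and 13.2 ± 2.52 CPM in WT B cells (SD, n = 3 each), with a log2 fold change of 3.09 ± 0.56 (edgeR adjusted p = 0.00454). Without replicate 4 the value was 2.27 (adjusted p = 0.00426). Mouse erythroblasts need Mxi1 as their nuclei condense, and the order of the P1 libraries for Mxi1 was the order of their erythroid marker sums, 34360, 203400 and 6621 CPM in replicates 3, 4 and 5. Globin genes made up most of those sums, and Klf1, Ermap and Rhag were highest in replicate 3. The same order of P1 libraries was also that of the proliferation marker sums (3150, 4849 and 2107 CPM in replicates 3, 4 and 5), of Max and of Mxd3. The part of red cell precursors in the rise was not tested.

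Mxd3 (chromosome 13, 55472981 to 55477636, minus strand) is unusual among the antagonists in that it is made by dividing cells, around S phase. It had 36.2, 40.7 and 21.3 CPM in P1 replicates 3, 4 and 5, against 2.48, 3.79 and 3.10 CPM in WT A, B and C. The groups were far apart and relative to its mean the P1 spread was smaller than for Mxd1 and Mxi1. The means were 32.8 ± 10.1 CPM in P1 spleen and 3.12 ± 0.652 CPM in WT B cells (SD, n = 3 each), and the log2 fold change was 3.38 ± 0.37 (edgeR adjusted p = 0.000788). The 10 proliferation markers, all called higher, summed to 3150, 4849 and 2107 CPM in P1 replicates 3, 4 and 5 and to 138 to 194 CPM in WT B cells. Mki67 made up most of the P1 sums, at 1884, 3824 and 1136 CPM in replicates 3, 4 and 5, and Top2a, Ccnb1, Cdk1, Bub1, Plk1, Rrm2 and Ccna2 were highest in replicate 3, where Mxd3 was not. The part of dividing cells in the rise was not tested. Mxd3 shares 105 of its 2369 exon bases with Prelid1 on the other strand, and the strand used in counting is not given in the sources used here.

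**Figure D2:**
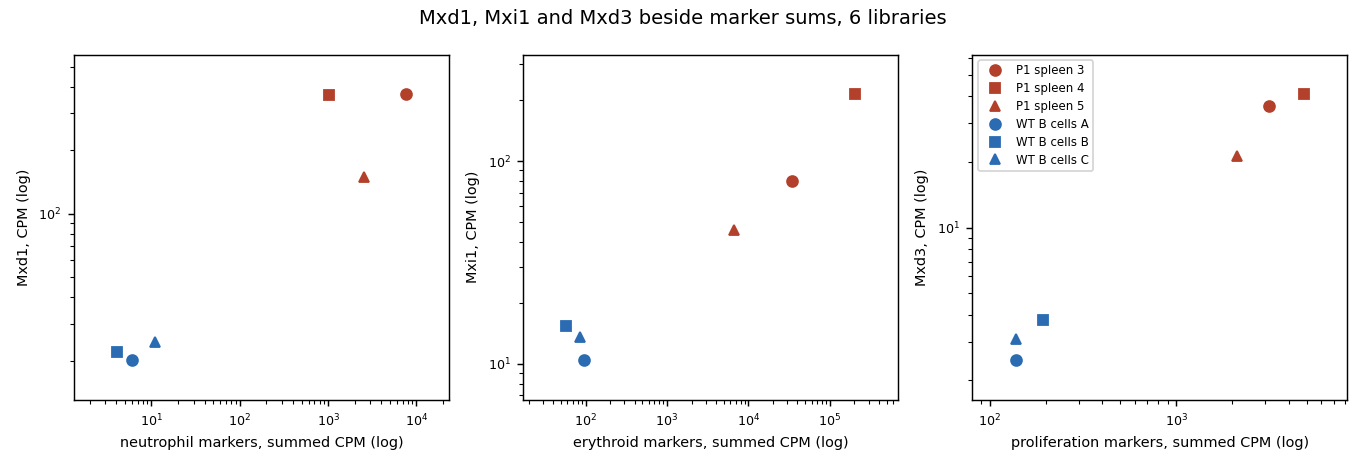
Level of Mxd1, Mxi1 and Mxd3 (CPM, log axis) against the summed CPM (log axis) of neutrophil, erythroid and proliferation markers, 1 point per library, P1 spleen in red and WT B cells in blue. All P1 points lie above and to the right of all WT points in each panel, and the 3 P1 spleens differ among themselves in each marker sum.

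Mxd4 (chromosome 5, 34331227 to 34345064, minus strand), an antagonist typical of resting cells, was the single member called lower. It had 61.5, 72.2 and 70.5 CPM in P1 replicates 3, 4 and 5 and 149.6, 119 and 130.2 CPM in WT A, B and C. The groups did not overlap, and the P1 libraries were closer to each other for Mxd4 than for any other member above 10 CPM. The means were 68.1 ± 5.76 CPM in P1 spleen and 133 ± 15.3 CPM in WT B cells (SD, n = 3 each). The log2 fold change was -0.97 ± 0.23 (edgeR adjusted p = 0.0154). The call was lost without WT A, B or C (adjusted p = 0.0825, 0.0528 and 0.0583), at values of -0.91 to -1.07. Under scaling that evens out the pan-B markers between libraries it turned to 2.41, below the 3.32 by which the median gene then differed. Mxd4 shares 514 of its 8483 exon bases with Gm42846 on the other strand, which had 0 counts over all libraries.

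Mnt (chromosome 11, 74721746 to 74736551, plus strand), the broadly made antagonist that holds MYC sites in resting cells, had 55.7, 118 and 69.4 CPM in P1 replicates 3, 4 and 5. In WT A, B and C it had 102, 103 and 122 CPM. Replicate 4 lay within the WT range and the other P1 libraries below it, and the log2 fold change was -0.43 ± 0.31 (edgeR adjusted p = 0.34). Without replicate 4 it was called lower, at -0.78 (adjusted p = 0.0331).

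Mlx (chromosome 11, 100978103 to 100983033, plus strand), the partner shared with MondoA, had 20.5, 6.71 and 11.1 CPM in P1 replicates 3, 4 and 5, against 23.8, 29.9 and 18.6 CPM in WT A, B and C. P1 replicate 3 reached into the WT range, and the log2 fold change of -0.90 ± 0.42 did not pass (edgeR adjusted p = 0.151), though it did without that library (-1.42, adjusted p = 0.0244). Mlx shares 385 of its 1999 exon bases with Psmc3ip on the other strand.

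Set per kilobase of exon, the order of the members differed between the groups. The length is the sum of all annotated exon bases, which can exceed the transcripts made, so levels of different genes compare only roughly. Every comparison of genes per kb in this text holds that limit. In P1 spleen Myc averaged 78.4 CPM per kb, followed by Mxd1 (41.7), Max (25.6), Mnt (17.5), Mxi1 (16.5), Mxd3 (13.8), Mxd4 (8.02), Mlx (6.39), Mycl (0.61) and Mycn (0.0994). Neighbours in that order overlapped in range except between Mxd3 and Mxd4 and between Mlx and Mycl. In WT B cells Myc averaged 115 CPM per kb, followed by Max (26.9), Mnt (23.6), Mxd4 (15.7), Mlx (12.04), Mxd1 (3.14), Mxi1 (1.93), Mxd3 (1.32), Mycl (0.746) and Mycn (0.106). There the ranges of Max and Mnt, of Mxd4 and Mlx, of Mxi1 and Mxd3 and of Mxd3 and Mycl overlapped, and those of the other neighbours did not. Mxd1 thus stood just after Myc in P1 spleen and behind Mlx in WT B cells. Mxd1 exceeded Myc in P1 replicate 3, at 52.3 against 41.8 CPM per kb, and in no other library.

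The make-up of the antagonist transcripts within each library differed accordingly. Mxd1 took 53.1%, 38.6% and 35.1% of the summed level per kb of Mxd1, Mxi1, Mxd3, Mxd4 and Mnt in P1 replicates 3, 4 and 5, against 6.31%, 7.19% and 7.14% in WT A, B and C. Mxi1 took 11.1% to 23.3% in P1 spleen and 3.40% to 5.24% in WT B cells, and Mxd3 took 12.8% to 15.5% in P1 spleen and 2.32% to 3.69% in WT B cells. Mxd4 took 6.35% to 13.8% in P1 spleen and 31.7% to 39.0% in WT B cells, and Mnt took 12.2% to 24.9% in P1 spleen and 48.97% to 54.3% in WT B cells. These shares use 1 library at a time and do not depend on the scaling between libraries. They do depend on the exon lengths used, as does the ratio of Myc to the sum. The sum itself was 98.5, 134 and 60.1 CPM per kb in P1 replicates 3, 4 and 5 and 45.2, 43.3 and 48.4 in WT A, B and C. Myc divided by that sum was 0.424, 0.859 and 1.30 in P1 replicates 3, 4 and 5, against 2.06, 3.05 and 2.46 in WT A, B and C, so that the ranges of this ratio did not overlap. The sum holds Mxd1, Mxi1 and Mxd3, which were called higher, and Myc itself was not called. The ratio therefore largely repeats those calls and is not separate support. No share over other such ratios was computed, and the CPM of the groups stood apart in 47.8% of all tested genes. A whole spleen mixes cell types, and the ratio is not that of any single cell.

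**Figure D3:**
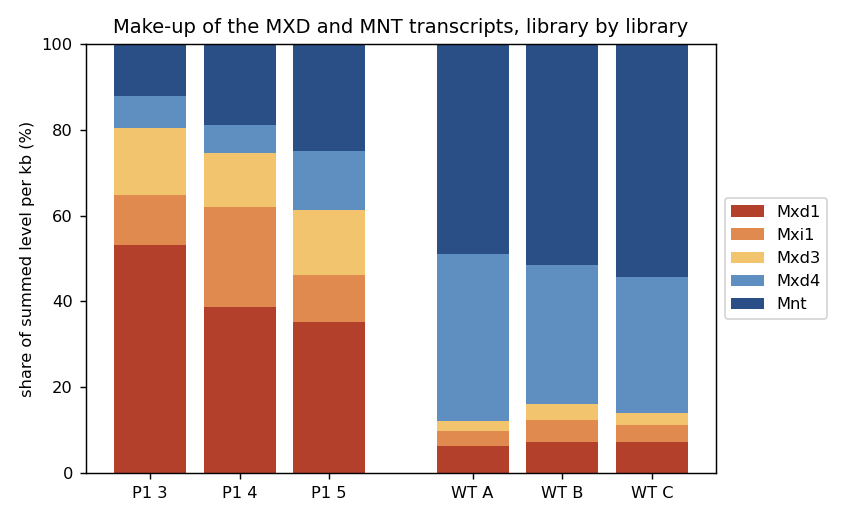
Share (%) of Mxd1, Mxi1, Mxd3, Mxd4 and Mnt in their summed level per kilobase, 1 bar per library, P1 spleens left of WT B cells. Mxd4 and Mnt fill most of each WT bar, and Mxd1, Mxi1 and Mxd3 most of each P1 bar.

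Relative to Max in the same library, the same members stood apart, which largely repeats their fold changes. The log2 ratio of Mxd1 to Max per kb averaged 0.63 ± 0.38 in P1 spleen and -3.10 ± 0.08 in WT B cells (SD, n = 3 each). For Mxi1 it averaged -0.89 ± 0.76 in P1 spleen and -3.81 ± 0.20 in WT B cells, and for Mxd3 -0.90 ± 0.10 in P1 spleen and -4.35 ± 0.22 in WT B cells. Mxd3 held nearly the same ratio to Max in all 3 P1 spleens, although its CPM in them differed. The Mxd4 ratio was -1.64 ± 0.44 in P1 spleen and -0.78 ± 0.25 in WT B cells, and did not overlap either. The ratio of Myc to Max was 0.64, 1.85 and 2.10 in P1 replicates 3, 4 and 5 and 1.90, 2.24 and 2.10 in WT A, B and C, with replicate 3 lowest. In all, 4 of 8 tested members (50%) had ratios that did not overlap between groups, not far from the 41.0% of all tested genes set over Max in this way.

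**Figure D4:**
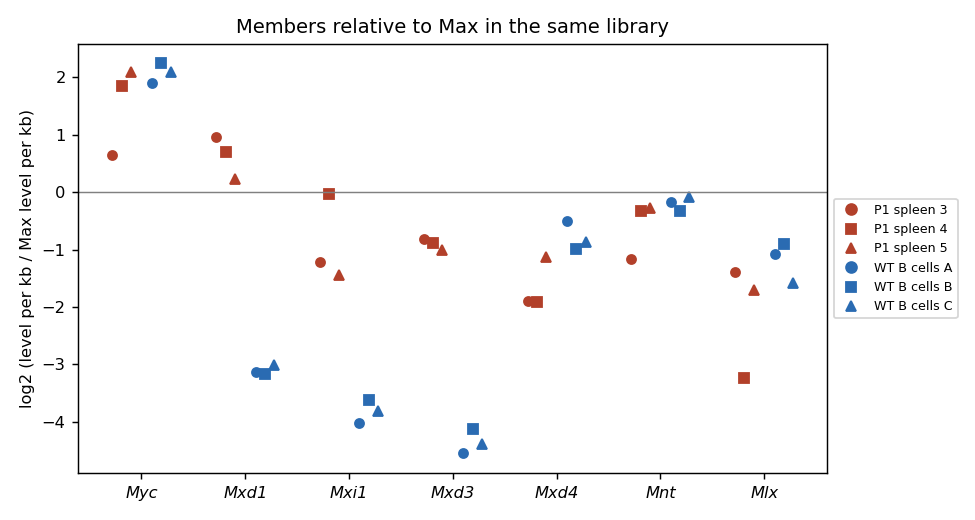
Log2 ratio of the level per kilobase of 7 members to that of Max in the same library, P1 spleen in red left of WT B cells in blue, 1 point per library. Mxd1 lies above Max in all P1 spleens, from 0.22 to 0.96, and below it in all WT libraries, from -3.17 to -3.01.

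Scaling to the pan-B markers, which evens out the RNA of those markers and not the number of B cells, called 90.7% of all tested genes higher and 0.466% lower, with a median log2 fold change of 3.32. Under it 9 of the 9 tested members were called higher, a count that holds this shift. Relative to that median Mxd1, Mxd3 and Mxi1 were at 3.98, 3.61 and 3.6, beside 3.71, 3.37 and 3.07 relative to the median under the standard scaling. Myc was at -0.29, Max at 0.14, Mnt at -0.17, Mycl at -0.50, Mxd4 at -0.91 and Mlx at -1.04 relative to the same median.

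The genes whose profile over the 6 libraries was closest to a member's were found among 9887 tested genes of at least 5 CPM, by the root mean square difference of centred log2 CPM. Nearest to Mxd3 were Cdca8, Ccnb2 and Atp7b, at 0.147, 0.151 and 0.193 log2 units. Nearest to Mxd1 were Fam234b, Igf1r and Mlkl, at 0.222, 0.230 and 0.233, and nearest to Mxi1 were March3, Ccrl2 and Gbp8, at 0.157, 0.190 and 0.190. The closest profiles to Mxd4 were Clcn6, Arhgap45 and Llgl2, at 0.0422, 0.0564 and 0.081, and those to Myc were Rpl9, Ccdc117 and Zfp1, at 0.0995, 0.126 and 0.141. Much of such a profile is the difference between the groups.

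Of the extended network, the large MAX partner Mga and the MondoA gene Mlxip were lower in P1 spleen. Mga had 83.0, 54.4 and 85.3 CPM in P1 replicates 3, 4 and 5, against 167, 181 and 154 CPM in WT A, B and C, and fell by 1.17 ± 0.27 (log2, edgeR adjusted p = 0.0123). Mlxip had 98.2, 121.5 and 113 CPM in P1 spleen and 191.5, 192.6 and 185 CPM in WT B cells, and fell by 0.78 ± 0.23 (adjusted p = 0.0378). Leaving out WT A or WT B took Mga past the threshold (0.0538 and 0.0625), leaving out any of the WT libraries did so for Mlxip (0.112 to 0.134), and library totals did too (0.0701). Mlxipl, the gene of the liver glucose sensor ChREBP, was under 1 CPM in every library and not tested, and Zbtb17, whose product MIZ1 joins MYC in repression, was at 1.13 ± 0.43 (adjusted p = 0.0838). With P1 replicate 3 left out Zbtb17 was called higher (1.49, adjusted p = 0.0056).

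Of 2 targets of MondoA and MLX, 1 was called higher and 1 was not called. Among all tested genes 16.9% were called higher and 11.0% lower. Arrdc4, an arrestin-like gene that glucose induces, had 13.1, 11.1 and 13.7 CPM in P1 replicates 3, 4 and 5 and 1.03, 0.578 and 1.21 CPM in WT A, B and C. It rose by 3.74 ± 0.43 (log2, edgeR adjusted p = 0.000908). Txnip, the best known MondoA target and a brake on glucose uptake, had 235, 202 and 154 CPM in P1 spleen and 305.5, 373 and 323 CPM in WT B cells, with a log2 fold change of -0.76 ± 0.28 that did not pass (adjusted p = 0.0742), though it did without P1 replicate 3 (0.0368) and in DESeq2 (0.0242). P1 and WT libraries were apart for either gene, as they were in 47.8% of all tested genes.

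Of 33 tested partner and regulator genes in 4 lists, 3 were called higher (9.1%) and 4 lower (12.1%), beside 16.9% higher and 11.0% lower among all tested genes, with a median of 0.13 on the log2 scale. Without WT A or WT B the lower calls numbered 0, and without WT C 1. None of 10 MYC coactivators, Trrap and Ep400 among them, was called, with log2 fold changes from -0.35 to 0.64. Of 10 corepressors of the MXD proteins and MNT, Sin3a, the scaffold that MXD proteins bind, was called lower, at 84.6 ± 8.40 CPM in P1 spleen and 145 ± 18.0 CPM in WT B cells (log2 -0.77 ± 0.24, edgeR adjusted p = 0.0405). It did not pass when any of the WT libraries was left out (0.0846 to 0.162), with library totals (0.0967) or with no filter (0.0514). The 9 others, Hdac1 and Hdac2 included, were not called.

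Of 10 genes for the stability of MYC proteins, 3 rose (30%) and 1 fell (10%), beside 16.9% higher and 11.0% lower among all tested genes. Cip2a, an inhibitor of the phosphatase that promotes MYC decay, had 28.4 ± 11.6 CPM in P1 spleen and 4.18 ± 0.924 CPM in WT B cells (SD, n = 3 each), and rose by 2.76 ± 0.39 (log2, edgeR adjusted p = 0.00172). Aurka, a mitotic kinase that shields MYCN from decay, had 41.0 ± 7.90 CPM in P1 spleen and 6.42 ± 0.945 CPM in WT B cells, and rose by 2.67 ± 0.29 (adjusted p = 0.000758). Skp2, an F-box protein that acts on MYC in S phase, rose by 1.85 ± 0.36 (adjusted p = 0.00636). These 3 genes are also made by dividing cells, whose markers rose as given for Mxd3, and the part of proliferation was not tested. Usp28, a deubiquitinase that protects MYC, fell by 0.87 ± 0.26 (adjusted p = 0.0386), but did not pass when any of the WT libraries was left out (0.101 to 0.146), with library totals (0.106) or with no filter (0.0738). Fbxw7, the main ubiquitin ligase adaptor for MYC, was at 0.55 ± 0.31 (adjusted p = 0.227).

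Among 65 textbook MYC target genes 14 were called higher (21.5%) and 2 lower (3.1%), beside 16.9% higher and 11.0% lower among all tested genes, with a median of 0.61 on the log2 scale. The lists overlap in function with the proliferation markers, and their part was not tested. Of 25 ribosome and nucleolus targets 1 was higher and 1 lower (4% each), with a median of 0.51. Ncl, the abundant nucleolar protein nucleolin, had 410.4, 684 and 923 CPM in P1 replicates 3, 4 and 5 and 382, 431 and 415 CPM in WT A, B and C, at 0.72 ± 0.36 (edgeR adjusted p = 0.176). Ppan, a factor of the large ribosomal subunit, rose by 1.27 ± 0.39 (adjusted p = 0.0396), and Gnl3, the nucleolar GTPase nucleostemin, fell by 0.80 ± 0.22 (adjusted p = 0.0292). Neither passed when any of the WT libraries was left out (0.108 to 0.156 for Ppan and 0.095 to 0.113 for Gnl3), and Ppan also missed without P1 replicate 4 or 5 (0.0909 and 0.0852). With library totals neither passed (0.162 for Ppan and 0.0734 for Gnl3), nor did Ppan in limma-voom (0.0606). Nop2, a methylase of ribosomal RNA, was at 1.2 ± 0.39 (adjusted p = 0.0505) and Tcof1, a cofactor of ribosomal RNA transcription, at -0.42 ± 0.42 (adjusted p = 0.505). Ncl and Nop2 passed without P1 replicate 3 (0.0364 and 0.00997), and Tcof1 without P1 replicate 5 (0.0462).

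Of 22 metabolic targets 7 were higher (31.8%) and 0 lower, beside 16.9% higher and 11.0% lower among all tested genes, with a median of 0.86. Slc16a1, the lactate transporter MCT1, had 224, 139 and 64.4 CPM in P1 replicates 3, 4 and 5, against 8.61, 12.3 and 15.9 CPM in WT A, B and C, and rose by 3.54 ± 0.49 (log2, edgeR adjusted p = 0.00166). Slc7a5, a chain of the large neutral amino acid transporter, rose by 3.21 ± 0.38 (adjusted p = 0.00095) and Hk2, the inducible hexokinase, by 2.68 ± 0.29 (adjusted p = 0.000758). Pkm, pyruvate kinase, rose by 1.72 ± 0.39 (adjusted p = 0.0127), though not when any of the WT libraries was left out (0.0625 to 0.0846), and Eno1, an enolase, was at 0.96 ± 0.38 (adjusted p = 0.0923). Of 18 targets in cell cycle and translation 6 were higher (33.3%) and 1 lower (5.6%). Birc5, the mitotic protein survivin, rose by 4.28 ± 0.31, Ccne1, the G1 to S cyclin, by 2.63 ± 0.25 and E2f1 by 2.51 ± 0.32 (edgeR adjusted p = 0.000359, 0.000579 and 0.00122). Hspe1, a mitochondrial chaperonin, fell by 1.41 ± 0.27 (adjusted p = 0.00576). The translation factors Eif5a and Eif4a1 were at 0.59 ± 0.33 and 0.34 ± 0.34 (adjusted p = 0.222 and 0.496). Without P1 replicate 4, Eno1 and Eif5a passed (0.0172 and 0.0431).

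Genes that MYC is known to repress were tested for 8 of 11, of which 4 rose (50%) and 0 fell, beside 16.9% higher and 11.0% lower among all tested genes, with a median of 1.64 on the log2 scale. Cdkn1a, the CDK inhibitor p21, had 15.4, 45.4 and 27.3 CPM in P1 replicates 3, 4 and 5 and 1.70, 1.61 and 2.42 CPM in WT A, B and C. It rose by 3.93 ± 0.48 (log2, edgeR adjusted p = 0.000989). Gadd45a, a stress gene, Thbs1, the matrix protein thrombospondin, and Ndrg1, a differentiation gene, rose by 2.70 ± 0.64, 1.97 ± 0.62 and 1.79 ± 0.50 (adjusted p = 0.0149, 0.0469 and 0.0285). Gadd45a missed without WT A or WT B (0.0682 and 0.0634), Thbs1 without WT B or any P1 library (0.0695 to 0.149), and Ndrg1 without any library except P1 replicate 5 (0.0553 to 0.117). With library totals Thbs1 (0.0557) and Ndrg1 (0.0675) did not pass, nor did Thbs1 with no filter (0.108) or Ndrg1 in limma-voom (0.0507). Cdkn1b, the inhibitor p27, was at 0.17 ± 0.34 (adjusted p = 0.749), and Gadd45b, Hbp1 and Clu were not called either (adjusted p = 0.145, 0.552 and 0.362). Cdkn2b, Cdkn1c and Ndrg2 were too low to test.

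**Figure D5:**
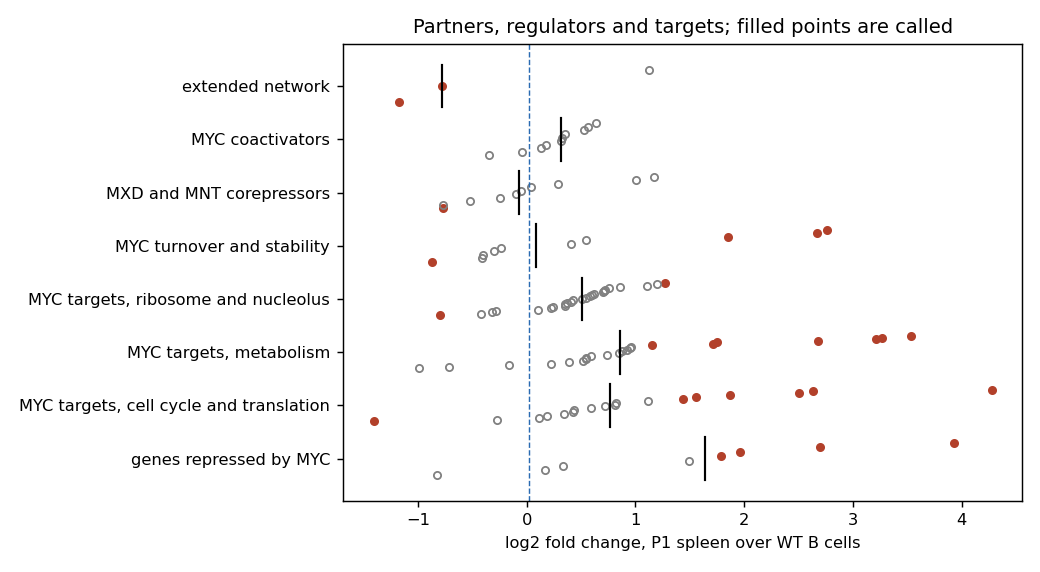
Log2 fold changes (P1 spleen over WT B cells) of the tested genes in 8 lists of partners, regulators and targets, 1 point per gene, filled where called, with a black bar at each list's median and a dashed line at the median of all tested genes (0.02). The coactivators lie between -0.35 and 0.64, and the called metabolic and cell cycle targets reach 3.54 and 4.28.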

How the data were processed

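Counts per gene were deposited by the authors as 1 table of raw counts for 6 libraries, without normalisation. The submitters' processing notes name Trim Galore, HISAT2, featureCounts and the build GRCm39. Their settings, and the strand used for counting, are not given in the sources used here. Per the labels' protocols, 50 ng of RNA went into a directional library kit. The table's Length column, the authors' summed exon bases per gene, was used to set CPM per kb.

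Symbols were matched by gene ID for 51948 of 56884 genes, and all 185 entries of 17 gene lists matched. Genes were filtered with filterByExpr, normalised with TMM (factors 0.578 to 1.13 in P1 and 1.09 to 1.18 in WT) and tested by the robust quasi-likelihood method of edgeR 4.0.16 under R 4.3.3, without covariates. P-values were adjusted by Benjamini-Hochberg over 15462 genes. The standard error of a log2 fold change is its size over the root of F. Ratios to Max used 0.5 added counts. Intervals cover counting error only. No pair of libraries in a group held the same counts (chi-square per degree of freedom 22.8 to 309). In simulated counts for 15462 genes, made from the 3 P1 and 3 WT libraries, the test recovered 42 of 100 genes set 4-fold apart and 99 of 100 set 16-fold apart, with 5 unchanged genes among 146 calls. Only the genes set apart differed there, while 2618 genes were called higher and 1702 lower in the data. The adjusted threshold thus fell at a smaller p in the simulation, so these shares do not give the recovery in the real test.

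Members and lists were chosen with earlier results of these data known, and no list was tested as a set. Genes named are all members, genes of lists of 12 or fewer, and of longer lists the 3 with the smallest adjusted p, the 2 with the highest mean CPM and, among targets, any called lower. Genes with the nearest profiles are named for Myc, Mxd1, Mxd3, Mxd4 and Mxi1, and not for Mycl, Max, Mnt and Mlx. Promoter windows came from RefSeq. Alternatives were RLE factors, library totals, pan-B-centred scaling, no filter, DESeq2 1.42.0, limma-voom (limma 3.58.1) and leaving out each library.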

Additional observations from a re-analysis of the deposited data

How the results depend on the processing

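The calls of Mxd1, Mxd3 and Mxi1 as higher held in all 12 alternatives, with log2 fold changes of 3.41 to 7.29, 3.06 to 6.93 and 2.27 to 6.92. No call of a member changed with RLE factors, library totals, no filter, DESeq2 or limma-voom. With pan-B-centred scaling 14019 genes were higher and 72 lower, all 9 tested members were higher and 0 lower, as were 65 target genes and 33 partner and regulator genes, with 0 lower in each. Values that turned positive under it were 3.02 for Myc, 2.82 for Mycl, 3.46 for Max, 2.41 for Mxd4, 3.14 for Mnt, 2.27 for Mlx, 2.04 for Mga, 2.63 for Mlxip and Gnl3, 2.67 for Txnip, 2.60 for Sin3a, 2.50 for Usp28, 2.73 for Tcof1, 1.99 for Hspe1 and 2.24 for Gadd45b. That follows from the scaling, which moved the median gene to 3.32.

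Library totals left 1 target and 1 partner lower, and no filter left 2 partners lower. Cdkn1b was -0.24 with library totals and ran from -0.23 to 0.39 with 1 library left out. Leaving out 1 library gave 1644 to 3206 higher and 815 to 2313 lower genes, the fewest without WT B, with 979 or fewer lower without any WT library. It gave 0 to 2 lower members, 1 to 5 lower targets and 0 to 4 lower partners. Mycl ran from -1.77 to 0.75, Max from -0.23 to 0.11 and Eif4a1 from -0.03 to 0.63. The causes were not tested. In the simulation 42 of 100 4-fold changes were recovered. Far fewer genes were changed there than were called in the data, so this share does not carry over to the real test. No paired analysis was possible because the replicate numbers of the groups share only 1 number and the WT columns carry none.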
